A study of Mus musculus with 2 samples.

Results

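CC chemokines are small secreted proteins that direct the migration of leukocytes, and Ccr2 is the receptor through which classical monocytes follow several of them. The genes described here are Ccl2, Ccl3, Ccl4, Ccl6, Ccl7, Ccl8, Ccl9, Ccl12, Ccl22 and Ccr2. All 10 were represented, by 15 probe sets annotated to exactly 1 of them, among 18194 genes with such a probe set. They were named as CC chemokines of macrophages with the receptor of the monocyte attractants, and partly selected on the CSF1-to-control ratio of Ccl12, the largest among measured genes once low signals are raised to a background level, so the ratios below are descriptions of these 2 arrays.

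Thioglycolate-elicited peritoneal macrophages are inflammatory cells that an irritant broth draws into the peritoneal cavity. They came from wild-type male C57BL6 mice aged 8 weeks that had received 0.2 ml of 10% thioglycolate medium, and were grown in α-MEM with 10% FBS to 80% confluence. The CSF1 sample then had 100 ng/ml CSF1 for 12 h, and the control sample had no CSF1 for the same 12 h. CSF1 is the growth factor of the macrophage lineage and signals through the receptor tyrosine kinase Csf1r. RNA of each sample was hybridised to 1 Affymetrix Mouse Genome 430 2.0 array. With 1 array per group there is no replicate check and no test, the number of arrays limits the precision, and the labels do not say how many animals a sample holds.

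Mouse Ccl2, Ccl7 and Ccl12 are monocyte chemoattractant proteins that act on Ccr2, and Ccl8 belongs to the same protein group but acts in mice on Ccr8. Ccl3 and Ccl4 are macrophage inflammatory proteins, and Ccl3 acts on Ccr1 among other receptors. Ccl6 and Ccl9 are rodent chemokines made in quantity by myeloid cells and act on Ccr1, and Ccl22 draws Ccr4-bearing T cells.

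Signals are the deposited intensities on a linear scale, and a ratio is the log2 of the CSF1 signal over the control signal. A background level of 164 units was set from probe sets of genes of unrelated tissues, and a gene was measured where its representative probe set, the one with the highest mean log2 signal, exceeded it on at least 1 array. This held for 10373 genes, with a median ratio of 0.00, and for 9 of the 10 genes described here. It also held for 17 of the 81 unrelated-tissue genes on the array, so a signal just above this level does not by itself show expression. Where a gene had several probe sets above background, their ratios scattered with a pooled SD of 0.27 log2 units (3556 genes). This covers neither cultures nor animals. The 18 hybridisation spike probe sets, which report RNA added in equal amounts, averaged -0.29 ± 0.13 in log2 ratio (SD, n = 18 spike probe sets). Signals of different probe sets are not compared as levels.

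The 4 genes of the monocyte chemoattractant protein group were higher on the CSF1 array, Ccl12 by the most. The signal of Ccl12 was 2642 units on the CSF1 array, against 405 units on the control array. This is a 6.52-fold higher signal, a log2 ratio of 2.71, which ranked 1st of the 10373 measured genes. Ccl7 had 4943 units on the CSF1 array, against 2486 units on the control array, or 1.99-fold higher. Its log2 ratio of 0.99 ranked 82nd. Ccl8 had 3054 units on the CSF1 array, against 1868 units on the control array, or 1.63-fold higher, with rank 311. Ccl2, the main monocyte attractant of inflamed tissue, had 13229 units on the CSF1 array, against 8802 units on the control array. It was 1.503-fold higher and ranked 527th. The log2 ratios of Ccl8, at 0.71, and Ccl2, at 0.59, were inside the range of the 200 genes nearest to each in mean signal, whose highest ratios were 1.05 and 0.593. The medians of these nearest genes were 0.03 and -0.02, with SDs of 0.28 and 0.21. Ccl7 and Ccl12 lay above their nearest genes, whose highest ratios were 0.65 and 0.86, but Ccl12 was selected partly on this ratio. Each of these 4 genes has 1 probe set, so no spread between probe sets can be given for them.

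**Figure D1:**
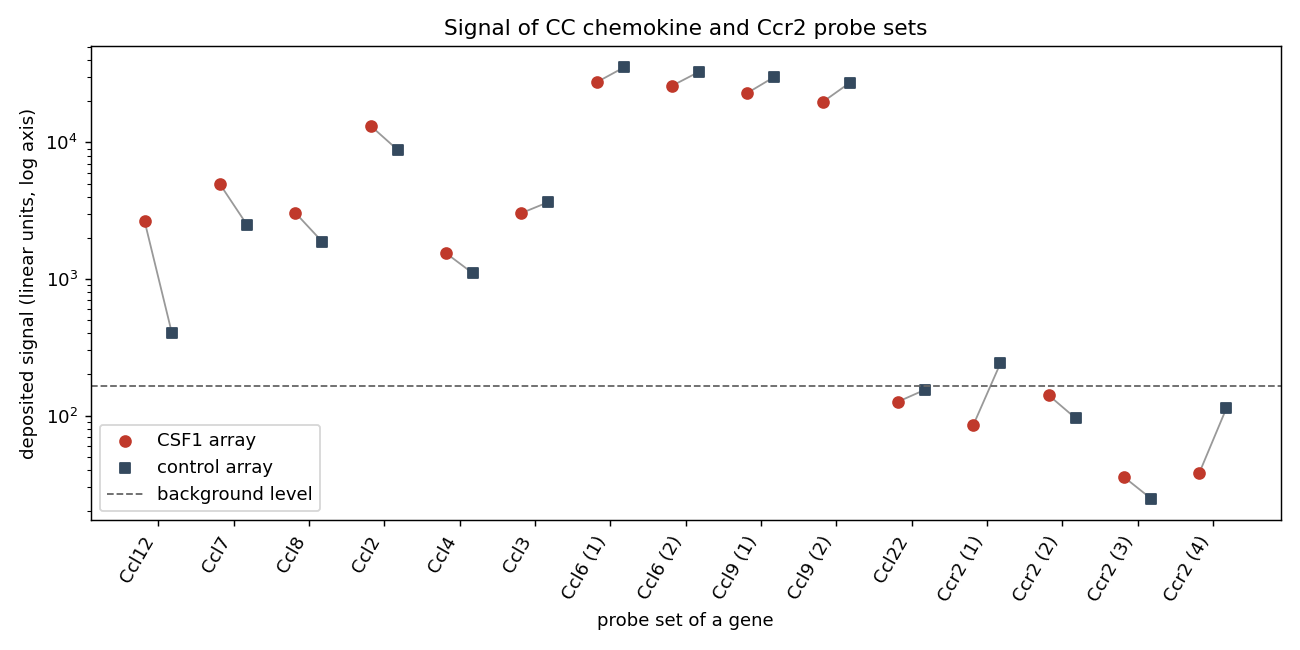
Deposited signal (linear units, log axis) of each of the 15 probe sets on the CSF1 array (red circles) and the control array (dark squares), joined by a line, with the background level of 164 units dashed. Ccl12, Ccl7, Ccl8, Ccl2 and Ccl4 stood higher on the CSF1 array and Ccl3, Ccl6 and Ccl9 lower, while Ccl22 and 3 of the 4 Ccr2 probe sets were below the background level on both arrays.

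The gene nearest to Ccl12 in log2 ratio among genes above background on both arrays was Igfbp3, which encodes a carrier of insulin-like growth factors, at 2.32. The matrix protein gene Efemp1, at 1.81, and the epithelial gene Scel, at 1.66, came next. Likeness here is the size of 1 ratio over 2 arrays.

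These 4 genes lie in 1 cluster on chromosome 11. In the order of protein-coding genes it runs Ccl2, Ccl7, Ccl11, Ccl12, Ccl8 and Ccl1. Ccl11, an eosinophil attractant that lies between Ccl7 and Ccl12, had 10.6 units on the CSF1 array and 50.5 units on the control array, both below background. Ccl1, on the far side of Ccl8, had 92.7 units on the CSF1 array and 95.1 units on the control array, also below background. The other 4 of the chromosome 11 genes described here lie in a second cluster, in the order Ccl5, Ccl9, Ccl6, Ccl3 and Ccl4. There the log2 ratios were -0.34 for Ccl5, a T-cell attractant, -0.39 for Ccl9, -0.36 for Ccl6, -0.27 for Ccl3 and 0.50 for Ccl4. The next gene, Wfdc17, which is not a chemokine, had a log2 ratio of -0.40.

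**Figure D2:**
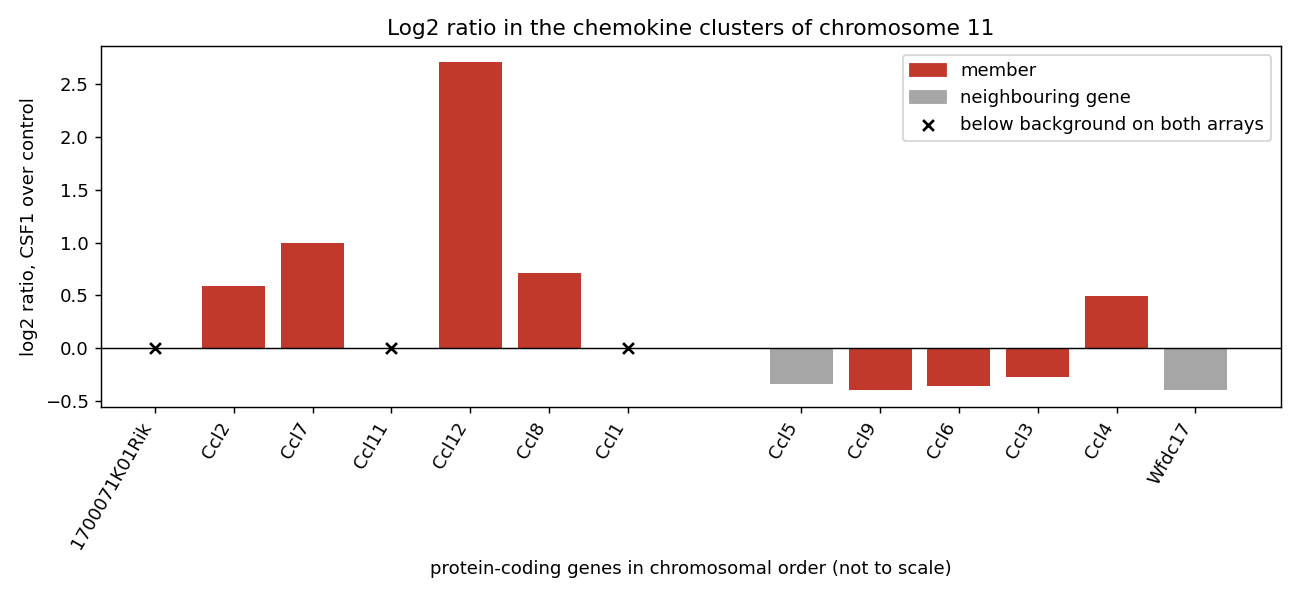
Log2 ratio of CSF1 over control (vertical axis), with genes in chromosomal order and not to scale. Red marks the chromosome 11 genes described here, and grey the measured protein-coding genes beside them, the chemokine gene Ccl5 and Wfdc17. Crosses mark genes below background on both arrays. The measured genes of the first cluster range from 0.59 to 2.71, and those of the second and Wfdc17 beside it from -0.40 to 0.50.

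The promoters of Ccl12 and Ccl8, neighbours whose signals were both higher on the CSF1 array, are shown with that of Ccl9, of the second cluster, for comparison. Each is the 250 bases before the gene's start, 5′ to 3′ on the gene's strand, from RefSeq on build GRCm38.p6, whose promoter table matched 7 of the 10 genes. They lie at chr11:82101595-82101844 (plus strand) for Ccl12, chr11:82114935-82115184 (plus strand) for Ccl8 and chr11:83578637-83578886 (minus strand) for Ccl9. Capitals mark matches to any of 5 motifs searched on both strands. These are the core promoter element TATAAA, an AP-1-like TGANTCA pattern, the interferon-gamma-activated site written TTCNNNGAA, the interferon-stimulated response element and the kappa B consensus.
Ccl12: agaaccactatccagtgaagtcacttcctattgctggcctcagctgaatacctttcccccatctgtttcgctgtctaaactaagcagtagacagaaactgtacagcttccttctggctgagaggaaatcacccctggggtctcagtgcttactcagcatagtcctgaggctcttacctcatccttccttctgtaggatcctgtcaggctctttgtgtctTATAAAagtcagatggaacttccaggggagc
Ccl8: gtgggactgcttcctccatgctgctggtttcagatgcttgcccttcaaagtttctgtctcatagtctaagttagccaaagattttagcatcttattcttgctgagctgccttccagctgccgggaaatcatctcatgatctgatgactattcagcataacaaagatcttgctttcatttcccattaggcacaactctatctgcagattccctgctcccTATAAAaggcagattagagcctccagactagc
Ccl9: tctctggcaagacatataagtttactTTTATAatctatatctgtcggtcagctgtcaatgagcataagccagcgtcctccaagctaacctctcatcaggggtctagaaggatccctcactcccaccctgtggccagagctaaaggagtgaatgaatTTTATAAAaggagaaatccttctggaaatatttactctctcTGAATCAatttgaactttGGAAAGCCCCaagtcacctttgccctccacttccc
The match in both Ccl12 and Ccl8 was TATAAA, with its first base 31 bases before the start in Ccl12 and 32 in Ccl8. Of 32851 promoters in the table, 12.4% hold TATAAA on either strand, and 1.75% hold it on the gene's strand with its first base 35 to 25 bases before the start, a window chosen after these matches were seen. In a global alignment, the Ccl12 and Ccl8 promoters had 161 identical bases, 64.4% of the 250, and the other 20 pairs among the 7 genes had 52.8% to 62.0%. Ccl2, Ccl4 and Ccl7 had no promoter in the table, so Ccl2 and Ccl7 of the first cluster were neither searched nor aligned. Ccl9 had TATAAA or its reverse complement at 3 places, of which 2 overlap, a TGANTCA match, which reads on both strands, and a kappa B match on the opposite strand. TGANTCA was in 6.75% and the kappa B consensus in 7.25% of all promoters. TTCNNNGAA and the interferon-stimulated response element, in 7.02% and 2.98% of all promoters, had no match in these 250 bases of any of the 7 genes, nor did any of the 5 motifs in Ccl3, Ccl6, Ccl22 and Ccr2. A match is a run of letters and not a shown binding site.

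The macrophage inflammatory protein genes Ccl3 and Ccl4 went opposite ways. Ccl4 had 1547 units on the CSF1 array, against 1097 units on the control array, a log2 ratio of 0.50 or 1.41-fold higher. Ccl3 had 3036 units on the CSF1 array, against 3657 units on the control array, a log2 ratio of -0.27 or 1.205-fold lower. Both ratios lay inside those of the 200 genes nearest in signal, which ran from -0.70 to 0.78 for Ccl4 and from -1.28 to 1.09 for Ccl3. Ccl3 lay about as far from 0 as the pooled SD between probe sets.

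Ccl6 and Ccl9 were lower on the CSF1 array by small amounts, on both probe sets of each. Ccl6 had 27583 and 25973 units on the CSF1 array, against 35375 and 32913 units on the control array, and its log2 ratios averaged -0.35 ± 0.01 (SD over 2 probe sets). Ccl9 had 23009 and 19753 units on the CSF1 array, against 30220 and 27337 units on the control array, and its log2 ratios averaged -0.43 ± 0.05 (SD over 2 probe sets). These signals were near the top of the range, which ended at 39157 units on the CSF1 array and 46452 units on the control array. The 200 genes nearest in signal to each had a median log2 ratio of -0.17 and an SD of 0.15. After quantile normalization, which equalises the 2 distributions, the ratio was -0.11 for Ccl6 and -0.20 for Ccl9. The spike probe sets averaged -0.29, with a range from -0.48 to 0.05, and the part of scaling in the ratios of Ccl6 and Ccl9 was not tested.

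**Figure D3:**
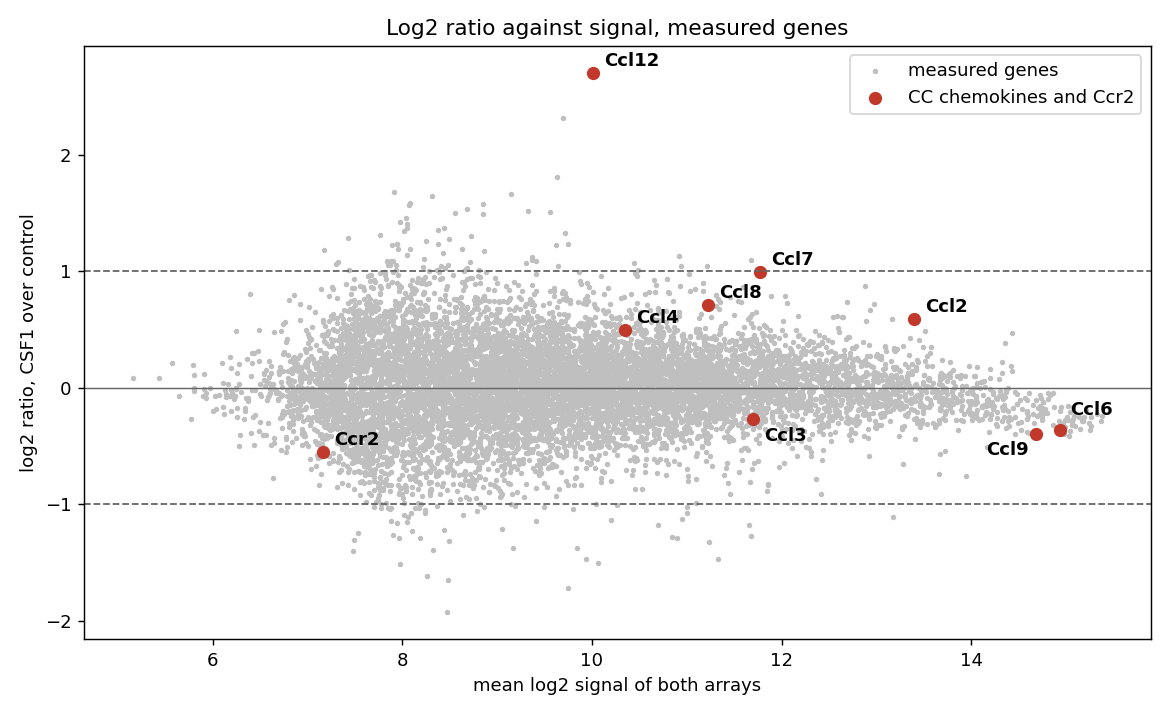
Log2 ratio of CSF1 over control (vertical axis) against the mean log2 signal of both arrays (horizontal axis) for the 10373 measured genes (grey), with the 9 measured chemokine and receptor genes in red and 2-fold dashed; ratios of genes at background on 1 array, Ccr2 among them, are bounds. Ccl12 is the highest point at 2.71, and Ccl6 and Ccl9 lie at the bright end, where the grey points sit below 0.

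Ccl22 was not measured, with 126 units on the CSF1 array and 155 units on the control array, both below background, so no ratio is given. The receptor gene Ccr2 was above background on the control array only, on 1 of its 4 probe sets. That probe set had 85.2 units on the CSF1 array, against 241 units on the control array, which is at least 1.47-fold lower against the background level. With a background level at the 95th percentile of the unrelated-tissue probe sets, 210.0 units, the bound was a log2 ratio of -0.20. Of the 17 unrelated-tissue genes that counted as measured, 11 had a ratio below 0 and 6 above. Among them, Gh had 272 units and Pomc 253 units on the control array and both were below background on the CSF1 array, as Ccr2 was. The other Ccr2 probe sets were below background on both arrays and did not share a direction. One had 38.0 units on the CSF1 array and 113 units on the control array. The remaining ones, whose ratios pointed the other way, had 141 and 35.5 units on the CSF1 array and 95.4 and 24.7 units on the control array. Of the genes beside them, Pllp and Cx3cl1 near Ccl22 and Ccr3 near Ccr2 were also below background.

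Of the 9 measured genes, 1, Ccl12, was at least 2-fold higher, where 0.723% of all measured genes were, and 0 reached 2-fold in the lower direction, where 0.569% of all measured genes did. With the arrays centred on the spikes, 3 of the 9 (Ccl12, Ccl7 and Ccl8) passed 2-fold upward and 0 downward, where 2.68% of all measured genes were higher and 0.174% lower, and the median of all genes stood at 0.29. At 1.5-fold, 4 of the 9 were higher, with Ccl2 just inside at 1.503-fold and Ccl4 just outside at 1.41-fold, and 0 lower, where 5.17% of all measured genes were higher and 4.58% lower. Since the choice of genes used the same arrays, nothing is read from these shares. The median log2 ratio of the 9 was 0.50, and 5 were above 0 and 4 below.

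Ccl12, Ccl7, Ccl8 and Ccl2 kept a log2 ratio above 0 under all 5 scalings of the arrays that were run. Taken relative to the all-gene median, Ccl12 lay between 2.68 and 2.71, Ccl7 between 0.95 and 1.0, Ccl8 between 0.67 and 0.72 and Ccl2 between 0.58 and 0.64. Ccl3, Ccl6 and Ccl9 were below that median under all 5. Centring on the median or on the spikes moves all CSF1 signals alike, so by construction it hardly changes values taken relative to the all-gene median. Centred on the spikes, the ratio itself was 0.03 for Ccl3, -0.06 for Ccl6 and -0.10 for Ccl9.

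**Figure D4:**
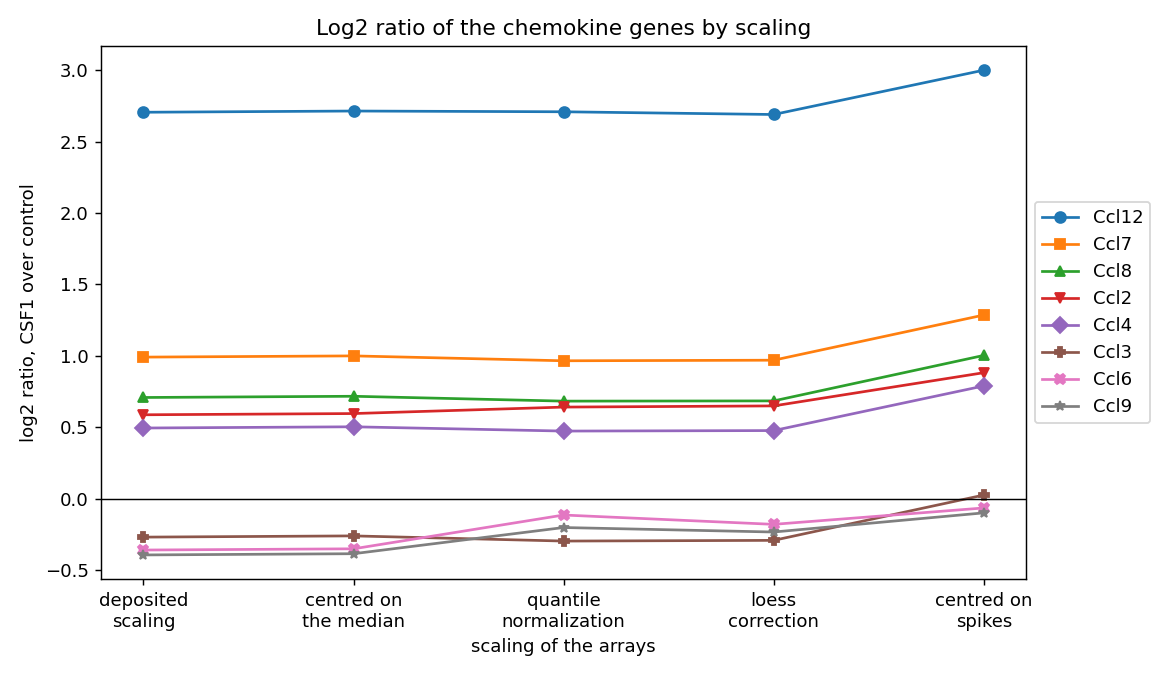
Log2 ratio of CSF1 over control (vertical axis) of 8 chemokine genes above background on both arrays, under 5 scalings of the arrays (horizontal axis); lines join the values of 1 gene. Ccl12 stays between 2.69 and 3.0, and Ccl3, Ccl6 and Ccl9 lie nearest 0, with Ccl3 at 0.03 when the arrays are centred on the spikes.

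Chemokines of the monocyte chemoattractant protein group are also made by fibroblasts, and markers of such cells were present in both samples. Of 10 fibroblast and mesothelial markers, 7 were measured, all 7 with a log2 ratio above 0, with a median of 0.30. Their summed signal was 64178 units on the CSF1 array and 50711 units on the control array, 1.27-fold higher. The bright probe sets of Col1a2 and Col3a1 weigh most in this sum. The collagen gene Col3a1 had 24045 units on the CSF1 array and 18382 units on the control array. The proteoglycan gene Dcn was at a log2 ratio of 0.59 and the growth factor receptor gene Pdgfrb at 0.78, the highest of the list, while the mean over both Col1a1 probe sets was -0.06. Of the mesothelial markers, Wt1 had 195 units on the CSF1 array and 175 units on the control array, a log2 ratio of 0.16, and Msln, Upk3b and Krt19 were below background. The ratios of Ccl8 and Ccl2 were within the range of this list. The part of stromal and mesothelial cells in the signals of Ccl2, Ccl7, Ccl8 and Ccl12 was not tested. In such bulk samples, a change in the number of cells of a type and a change in RNA per cell cannot be told apart.

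Macrophage markers, which the label of the cells implies, were far above background on both arrays. Of 9 such markers on the array, 8 were measured, with a median log2 ratio of -0.28 and 7 below 0. Their summed signal was 116729 units on the CSF1 array and 142448 units on the control array. The 200 genes nearest in signal to each marker had median log2 ratios from -0.17, for Cd68 and Lyz2, to 0.05, for Fcgr1. For Csf1r this median was -0.14, and the spikes averaged -0.29. Mertk, the lowest of the list, had 2072 units on the CSF1 array and 3483 units on the control array. Its log2 ratio was -0.75, or 1.68-fold lower, and the 200 genes nearest to it had a median of 0.01 and an SD of 0.27. The part of scaling in the ratios of these markers was not tested. Csf1r itself, the CSF1 receptor, was at -0.34, beside -0.36 for Ccl6 and -0.39 for Ccl9, and its ligand gene Csf1 was at -0.43. Ly6c2, a monocyte gene, was not among the annotated probe sets used here, and Cx3cr1 was below background. Cytotoxic lymphocytes, which also make Ccl3, Ccl4 and Ccl5, had 6 of 7 markers measured, all 6 below 0, with a median of -0.81 and a summed signal of 3141 units on the CSF1 array and 7373 units on the control array. Gzma was 3.29-fold and Gzmb 2.77-fold lower, and these genes weigh most in that sum. Nkg7 was at -0.14 and Klrk1 at -0.08, while Ncr1, a receptor of natural killer cells, was below background. The part of these cells in the Ccl3, Ccl4 and Ccl5 signals was not tested. T cells had 3 of 6 markers measured with a median of -0.04, and Cd3e and Cd4 were below background. B cells had 2 of 5, with a median of -0.15. Cd79b was above background on the control array only and Pax5 on the CSF1 array only, so this median is made of bounds. Neutrophils had 2 of 8, with Mmp8 at -1.07 and S100a8 at 0.18. Eosinophils and mast cells had 4 of 8, with a median of -0.15, and of these Siglecf and Kit were above background on 1 array only. Dendritic cells had 2 of 6, with a median of -0.59. Of these, Zbtb46, a transcription factor of classical dendritic cells, was above background on the control array only and at least 1.93-fold lower, and Itgax, which macrophages also express, was at -0.22. The part of these cells in the chemokine signals was not tested.

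**Figure D5:**
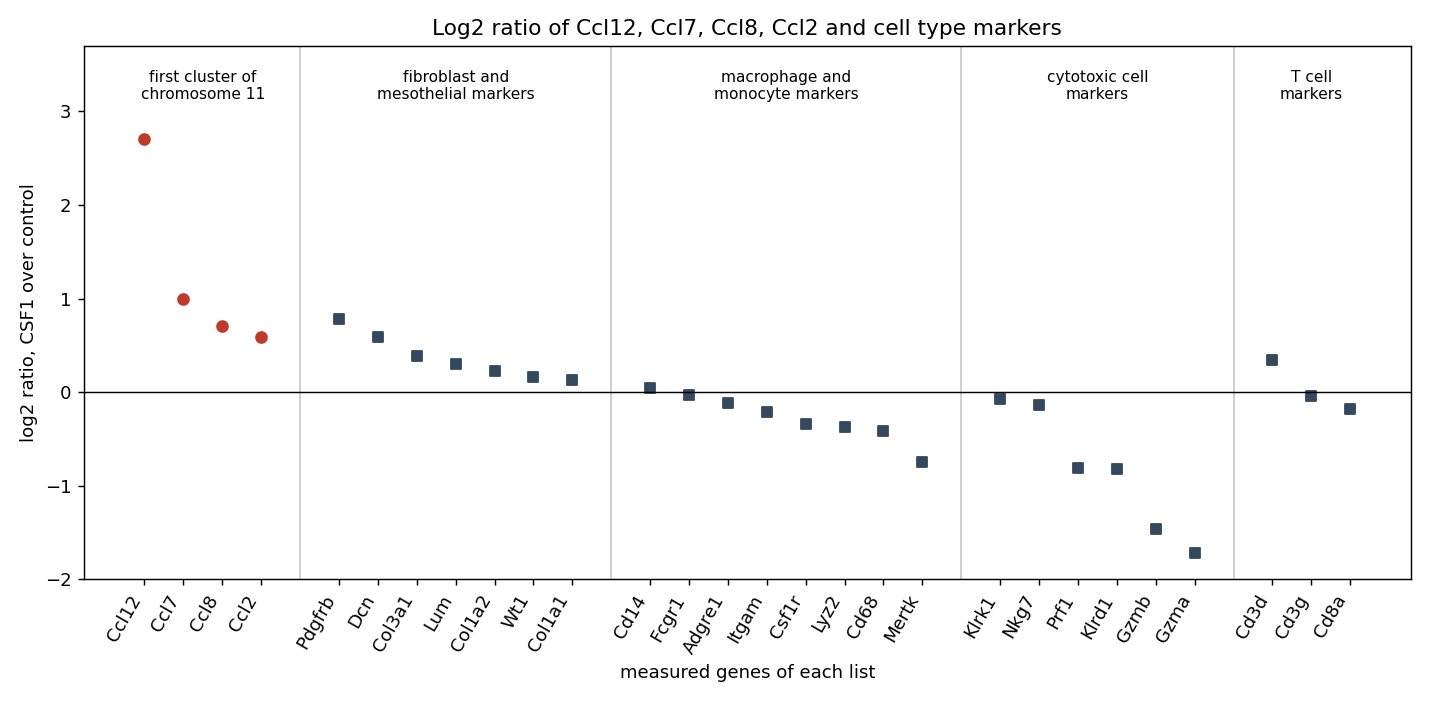
Log2 ratio of CSF1 over control (vertical axis) of the 4 measured genes of the first chromosome 11 cluster (red circles) and of the measured genes of 4 cell type marker lists (dark squares). The 7 fibroblast and mesothelial markers lie between 0.12 and 0.78 and the 6 cytotoxic cell markers between -1.72 and -0.08, and the 4 chemokine genes between 0.59 and 2.71.

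Among the other CC chemokine genes, 4 of 9 on the array were measured, and 1 was past 2-fold. Ccl24, an eosinophil attractant, had 591 units on the CSF1 array, against 1635 units on the control array, or 2.76-fold lower. Ccl25 and Ccl28 were above background on the CSF1 array only, at least 1.49-fold and 1.37-fold higher. They had 245 and 225 units on the CSF1 array, and 91.1 and 162 units on the control array. These are low signals, since the unrelated-tissue gene Gdf9 had 227 units on the CSF1 array and 93.9 units on the control array. Ccl17, which shares the receptor Ccr4 with Ccl22, had 54.5 units on the CSF1 array and 164.3 units on the control array, both below background. The median log2 ratio of the 4 was 0.05.

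Most receptor genes for the other ligands were below background. Of 12 CC and atypical chemokine receptor genes on the array, 5 were measured, 0 of them past 2-fold in either direction, with a median log2 ratio of -0.18. Ccr1, the receptor of Ccl3, Ccl6 and Ccl9, had 10651 units on the CSF1 array, against 13202 units on the control array. Its log2 ratio was -0.31, and the mean over its 2 probe sets was -0.31 ± 0.01 (SD). The 200 genes nearest to Ccr1 in signal had a median log2 ratio of -0.05 and an SD of 0.19, and the spikes averaged -0.29. The part of scaling in the ratio of Ccr1 was not tested. Ccrl2, an atypical receptor that does not signal to migration, was at -0.18. Ackr2, a receptor that scavenges inflammatory CC chemokines, was above background on the control array only and at least 1.31-fold lower, and Ackr1, a chemokine-binding receptor of red cells and endothelium, was at 0.33. Ccr3, Ccr4 and Ccr8 were below background on both arrays.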

How the data were processed

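The deposited values are probe set intensity values on a linear scale, which the authors analysed with GeneSpring 6.2 per the labels' design text. With 2% trimmed at each end, the mean signal was 500.00 on both arrays. How probes were summarized is not stated in the labels. Detection calls were not used. Groups were taken from the labels.

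Of 45101 probe sets, 34958 carried 1 gene symbol, 932 several and 9211 none. The symbols of all 10 genes matched a RefSeq table by Entrez ID. The background level, 164 units, was taken at the 90th percentile over 126 probe sets, for 81 of 90 listed genes that other tissues express, and 37.9% of probe sets on the CSF1 array and 39.1% on the control array exceeded it. Lower values were raised to it, and a fold against it is a lower bound. Of 18194 genes, 10373 were measured and 9144 were above background on both arrays. The members, gene lists and motifs were chosen with earlier results of these data known. Named genes were the members, genes past 2-fold and up to 4 with the largest ratio of each list, genes beside a member on its chromosome, and the 3 nearest to Ccl12 in ratio; further genes were named after their values were seen. With 1 array per group, no test between the groups was run. The script that counts genes past a fold was checked on simulated arrays with known changes. Tried as alternatives were centring on the spikes or on the median, loess (span 0.3), quantile normalization, other background levels, other probe set choices and thresholds of 1.5-fold and 3-fold. Tools were Biopython 1.88 for alignment, statsmodels 0.14.6 for loess, and matplotlib 3.10.9, pandas 2.3.3, scipy 1.17.1 and numpy 2.4.6 under Python 3.11.15.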

Additional observations from a re-analysis of the deposited data

How the results depend on the processing

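No paired analysis was possible because each group has 1 array, and for the same reason no replicate could be left out. A ratio is called moved here when it differs by more than the pooled SD between probe sets, 0.27. Centring on the spikes lifted all ratios, by construction, and gave 3 genes at least 2-fold higher in place of 1, a median over the measured genes of 0.79 in place of 0.50 and a Ccl12 ratio of 3.0. It also took Ccl3 to 0.03. Leaving out the background level gave 1 gene, Ccr2, at least 2-fold lower, at -1.50, and a median of 0.11, since Ccl22 then entered at -0.29. Without that level 9.58% of all genes passed 2-fold upward and 10.6% downward. A threshold of 1.5-fold gave 4 higher genes. Under the other alternatives the count of higher genes stayed at 1 and that of lower genes at 0. Over the 8 alternatives that recompute ratios, Ccl12 lay between 2.69 and 3.0, and the bound of Ccr2 between -0.20 with the stricter background level and -1.50 with none. Signal over background limits what can be said of Ccl22 and Ccr2.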

Other observations

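Genes that carry the signal of chemokine receptors to the migration machinery were mostly close to 0. Of 20 listed, 18 were measured, with a median log2 ratio of -0.03, 0 past 2-fold upward and 1 downward. That gene was Grk3, a kinase that desensitises such receptors, with 188 units on the CSF1 array and 395 units on the control array, or 2.10-fold lower, on a probe set that can match several transcripts. Prex1, an exchange factor that activates Rac, had 769 units on the CSF1 array and 1242 units on the control array, or 1.61-fold lower. The kinase gene Jak2 was at -0.43. Gng2, a G protein subunit gene, was at 0.45 on its brightest probe set and at -0.19 on the mean of its 4 probe sets.

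Of 16 CXC, C and CX3C chemokine genes, 10 were measured, with a median log2 ratio of 0.29, 2 past 2-fold upward and 1 downward. The interferon-inducible Cxcl9 and Cxcl10 were at 1.50 and 1.10, and the B-cell attractant Cxcl13 was at -1.0 on its brightest probe set and -0.67 on the mean of both. Cxcl12, a chemokine that stromal cells make, had 3978 units on the CSF1 array and 2770 units on the control array, a log2 ratio of 0.52. Xcl1, Cx3cl1, Cxcl3, Cxcl11, Cxcl15 and Ppbp were below background on both arrays.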
